A study of Caenorhabditis elegans with 4 samples.

Results

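The left arm of Caenorhabditis elegans chromosome III held 218 of the 2769 LIN-13 binding regions (peaks) in the combined peak list. Its peaks were chosen by position alone, as those on chromosome III whose midpoint lay below 3443 kb on genome build WormBase WS180, which is the first 25% of the chromosome as far as the peaks reach. The last peak inside this boundary was III:3389359-3389861, with a −log10 q of 9.87, and the first outside it was III:3456236-3456588, with 25.9.

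LIN-13, which has many zinc fingers, belongs to the synthetic Multivulva class B. This group of chromatin proteins, which includes the retinoblastoma-like LIN-35 and the heterochromatin protein HPL-2, keeps vulval and germline programmes off in cells that should not run them. Worm chromosomes have no single centromere. Their autosome arms are rich in repeats and in methylated histone H3 lysine 9, whereas the centres are rich in conserved and essential genes. The left end of III also carries its meiotic pairing centre, a repeat-rich region bound by zinc-finger proteins of another family.

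The data come from chromatin immunoprecipitation followed by sequencing (ChIP-seq) of whole hermaphrodites of strain OP49 at the fourth larval stage (L4), raised at 20 °C and fixed in 2% formaldehyde. All 4 samples, 2 LIN-13 ChIP samples and 2 input DNA samples, come from unc119(ed3) worms with the transgene wgIs49, which carries lin-13 joined to TY1, EGFP and FLAG tags together with unc119. The transgene was introduced by bombardment and is present as 1 strain, the antibody was a goat antibody against GFP, and no untagged strain is among these samples. Signal from whole worms averages all tissues, and it is not stated whether the replicates were separate cultures.

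Peaks were given for each ChIP replicate and for the combined list, each with a q-value by the authors. This q-value is the authors' own value for the peak. It is written here as −log10 q and ranks peaks within a list. The left arm of III held 120 of the 1309 replicate 1 peaks and 54 of the 734 replicate 2 peaks. Read depth is unknown, and replicate 2 has the shortest list everywhere. Both genes of the transgene, lin-13 and unc-119, lie on chromosome III in the RefSeq table of a later assembly. Their places on WS180 were not determined, so a peak that comes from transgene copies would not have been recognised.

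Peaks lay more densely on the left arm of III than on any other stretch compared, in all 3 lists. In the combined list the arm had 63.3 peaks per Mb, and the rest of III had 45.8. The left arm of I had 19.6 peaks per Mb, that of II 28.0, that of IV 31.6 and that of V 13.04. Replicate 1 gave 34.9 peaks per Mb on the left arm of III and 24.8 on the rest of the chromosome, with 5.56 to 16.5 on the 4 other left arms. Replicate 2 gave 15.7 and 14.5 on III, with 2.92 to 9.61 on the other left arms. The distance between the left arm and the rest of III was therefore much smaller in replicate 2 than in the other lists. As a share of all chromosome III peaks, the arm held 31.5% of those listed as combined (95% Wilson interval 28.2% to 35.1%), 31.9% of those in replicate 1 (27.4% to 36.8%) and 26.5% of those in replicate 2 (20.9% to 32.9%), against 25% of the length. The replicate 2 interval includes 25%. Such intervals cover counting error alone and take crowded neighbours as independent. No test was made of the density, because 1 arm against 4 cannot give a p below 0.2.

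**Figure D1:**
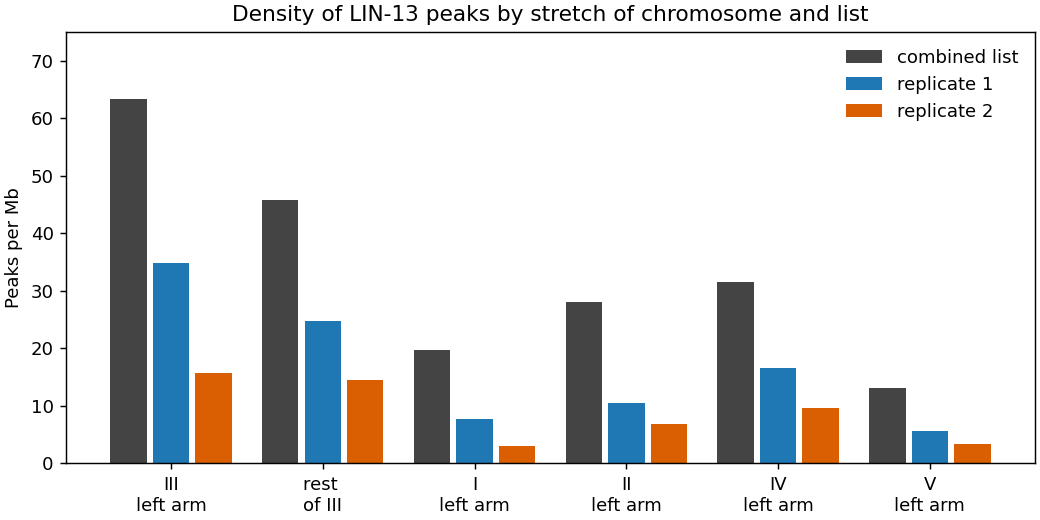
Peaks per Mb (vertical axis) on the left arm of III, the rest of III and the left arms of I, II, IV and V, as 1 bar for each of the 3 peak lists. The left arm of III has the highest bar in each list, at 63.3, 34.9 and 15.7 peaks per Mb, and the replicate 2 bars for the 2 stretches of III nearly match.

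The peaks were not spread evenly along the arm. Its second megabase held 107 of the 218 peaks, the first held 34, the third 55 and the last 443 kb held 22, or 49.7 peaks per Mb. Replicate 1 had 66 peaks in the second megabase, against 18, 28 and 8 in the others, and replicate 2 had 32, against 10, 9 and 3. All 3 lists thus had the most peaks in the same megabase. Without it the arm had 45.4 peaks per Mb, above each other left arm but close to the 45.8 of the rest of III. That value must fall, since the fullest megabase was left out of this arm and not of the other stretches.

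In fixed windows of 100 kb, the 34 whole windows of the arm held a median of 5 combined-list peaks (quartiles 3 to 8), with a mean of 6.41 ± 5.54 (SD). The 102 whole windows in the rest of III held a median of 4 (quartiles 2 to 7) and a mean of 4.53 ± 2.96 (SD). The middle of the distribution was thus similar, and the arm differed in its fullest windows. Of its windows, 5 held 15 or more peaks, whereas the fullest window in the rest of III held 12. Across the other 4 left arms, 1 window, on II, reached 15.

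The fullest window ran from 1.9 to 2.0 Mb and held 23 combined-list peaks, while replicate 1 had 21 and replicate 2 had 11. It was the fullest window of the arm in every list. Next came the windows from 1.5 to 1.6 Mb and from 1.8 to 1.9 Mb, each with 17 combined-list peaks. The first of these had 10 peaks in replicate 1 and 4 in replicate 2, and the second had 6 and 3. Together with their neighbours these windows form a dense stretch from 1.5 to 2.2 Mb, which was delimited after its values were seen. Not every window in it was dense, since that from 1.7 to 1.8 Mb held 5 combined-list peaks and that from 2.0 to 2.1 Mb held 6. The stretch made up 20.3% of the arm and held 98 of the peaks, or 45.0%, at 140 peaks per Mb against 43.8 in the rest of the arm. Replicate 1 had 59 of its 120 left-arm peaks there, and replicate 2 had 30 of 54.

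**Figure D2:**
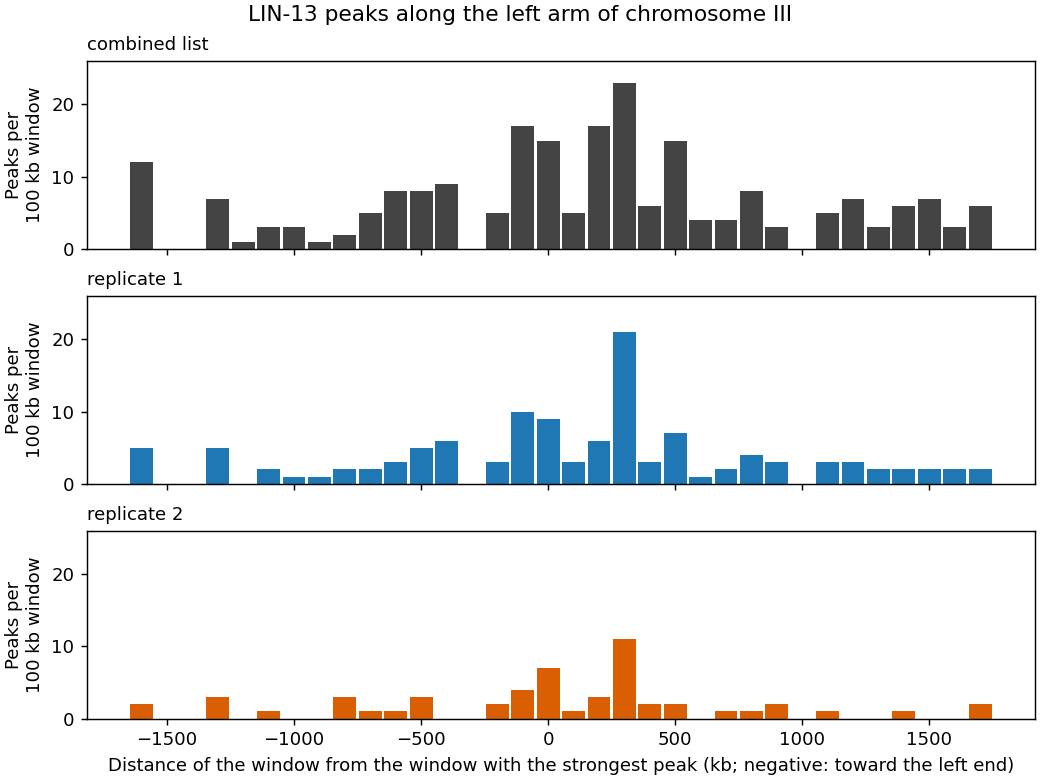
Number of peaks in each fixed 100 kb window of the left arm of III (vertical axis), by distance in kb from the window with the strongest peak (horizontal axis), in 1 panel for each list. The bar 300 kb to the right is the fullest in all 3 panels, with 23, 21 and 11 peaks.

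Empty stretches stood beside these dense ones. The largest gap between neighbouring peaks ran from III:89586 to 343670, a length of 254085 bp, and neither replicate list had a peak in it. Left of it, the outermost 100 kb of the chromosome held 12 combined-list peaks, 5 replicate 1 peaks and 2 replicate 2 peaks. The outermost peak of all, III:14792-15531, had a −log10 q of 8.07 and was in neither replicate list. Another 3 gaps exceeded 100 kb, at 133723 bp, 119126 bp and 113859 bp, again with no replicate peak inside.

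Neighbouring peaks lay close together. The median gap between the end of a peak and the start of the next was 3884 bp on the left arm of III (quartiles 1116 to 16832 bp), 7751 bp on the rest of III and 14351 bp on the other left arms. In replicate 1 these medians were 6611, 20825 and 45543 bp, and in replicate 2 they were 20106, 40763 and 75720 bp. The order was the same in all lists. No list had neighbours closer than 200 bp, so closer calls, if any, appear as 1 peak.

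Gaps of at most 2 kb made up 78 of 217 on the left arm of III, or 35.9%, against 75 of 383, or 19.6%, on the other left arms. The odds ratio was 2.30 (95% interval 1.58 to 3.35), and the difference passed a two-sided Fisher's exact test (adjusted p = 0.000192). It also passed in replicate 1, with 26.9% against 12.7% (adjusted p = 0.00868, Fisher's exact test), and did not pass in replicate 2, with 15.1% against 10.9% (adjusted p = 0.538, Fisher's exact test). Against the rest of III, where 133 of 472 gaps were this short, or 28.2%, the difference did not pass (adjusted p = 0.0708, Fisher's exact test). The odds ratio there was 1.43 (1.02 to 2.01). With arms of 20% of the chromosome it was 1.70 and passed (adjusted p = 0.0114, Fisher's exact test), so this call depends on the boundary. The other left arms were unlike each other, with 27.4% of gaps this short on II, 22.4% on V, 16.1% on IV and 12.3% on I, and II had a median gap of 6610.5 bp. Without the second megabase, 28.4% of the gaps on the arm were this short, and neither comparison passed. A denser stretch has shorter gaps by construction, so these shares describe the same crowding as the counts per window.

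Peaks joined by gaps of at most 2 kb were counted as 1 cluster. On this basis the arm had 140 clusters, of which 100 were single peaks and 40 held 2 peaks or more. The 18 clusters with 3 peaks or more held 74 peaks, or 33.9% of the arm's peaks, against 20.7% on the rest of III and 12.1% on the other left arms. Among those, II had 20.6%, V 14.7%, I 8.11% and IV 6.52%. For clusters of 2 peaks or more the shares were closer, at 54.1% on the arm, 48.2% on the rest of III and 46.7% on II. In replicate 1 this share was 43.3% on the arm and 36.7% on the rest of III, and in replicate 2 it was 24.1% and 25.3%. A denser stretch also has larger clusters by construction. Of the 27 clusters in the combined list with at least 4 peaks, 8 lay on this arm.

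The one with the most peaks, III:1920887-1934109, held 10 peaks in 13223 bp, and no cluster in the combined list held more. Peaks covered 48.1% of its span. Its members ranged in width from 159 to 1791 bp and in −log10 q from 3.79 to 36.5. Replicate 1 found 7 of the 10 and replicate 2 found 5. Only 2452 bp to its right began a further cluster of 3 peaks, III:1936562-1940410, all of them found in both replicates.

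The second largest cluster, III:1894786-1900757, held 7 peaks, from 93 to 521 bp wide. Replicate 1 found 2 of them and replicate 2 found 2. A cluster of 6 peaks at III:1616162-1622732 contained the strongest peak of the arm, and each replicate found 2 of its members. In the cluster of 5 peaks at III:1598956-1604982 all members were found in replicate 1 and 3 in replicate 2, and their −log10 q values ran from 9.12 to 25.04. Among the 4 clusters of 4 peaks, the longest was III:2481954-2487426, with 2 members found in replicate 1 and 1 in replicate 2. These 5 clusters held 32 peaks, of which 18 were found in replicate 1 and 13 in replicate 2.

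**Figure D3:**
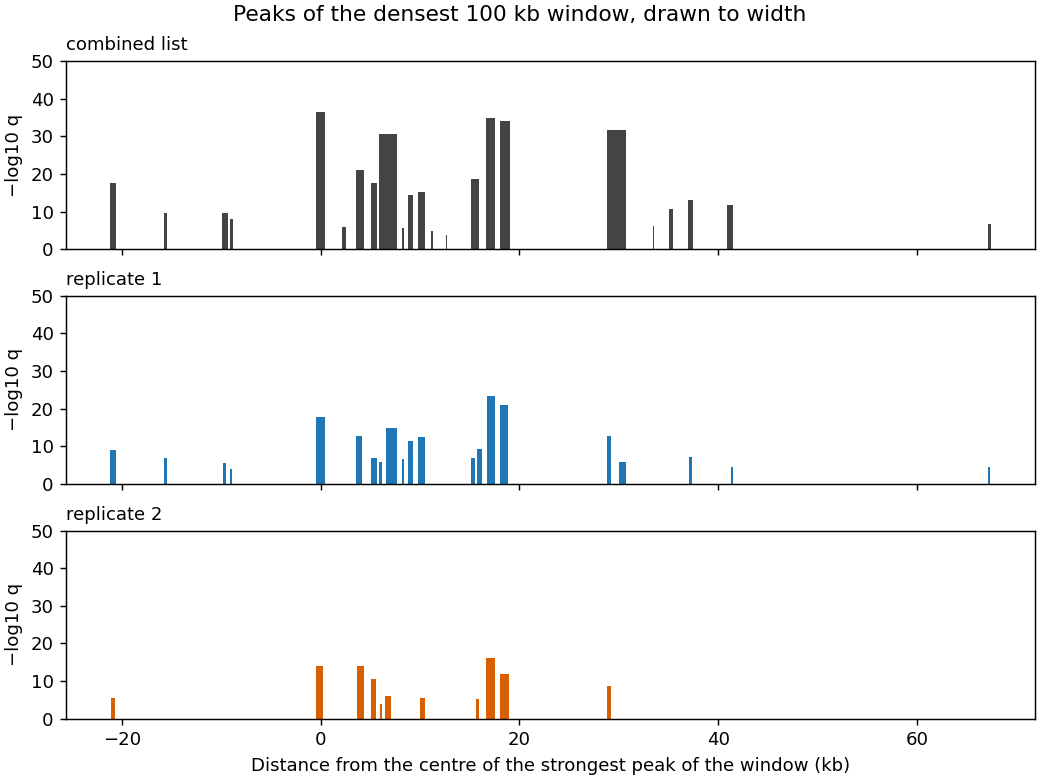
Peaks of the window from 1.9 to 2.0 Mb drawn to width, by distance in kb from the centre of its strongest peak (horizontal axis), with −log10 q as height (vertical axis), for the 3 lists. The 10-peak cluster begins at 0 kb, and most of the tall combined-list peaks have a peak at the same place in both replicates.

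Peaks on the arm were narrow. Their median width was 349 bp (quartiles 238 to 562 bp), against 456 bp on the rest of III, 433 bp on the other left arms and 472 bp in the whole list. Among the other left arms the medians were 390 bp on II, 396.5 bp on IV, 469.5 bp on V and 587 bp on I. In replicate 1 the median was 355 bp on the left arm of III against 479 bp on the rest of III. In replicate 2 it was 406.5 bp against 446 bp. All lists thus gave a lower median on the arm than on the rest of III. Against the other left arms together the medians were 355 and 472.5 bp in replicate 1 and 406.5 and 418 bp in replicate 2. In replicate 2 the left arms of II, at 369 bp, and IV, at 403 bp, had lower medians than that of III.

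On the left arm of III 144 of 218 peaks, or 66.1%, were narrower than the median of the whole list. On the rest of III the share was 249 of 473, or 52.6%, with an odds ratio of 1.75 (1.25 to 2.44, adjusted p = 0.00380, Fisher's exact test). On the other left arms it was 212 of 387, or 54.8%, with an odds ratio of 1.61 (1.14 to 2.27, adjusted p = 0.0153, Fisher's exact test). Both differences passed in replicate 1 as well, at 70% against 50.4% (adjusted p = 0.00211, Fisher's exact test) and 52.9% (adjusted p = 0.00868, Fisher's exact test). Neither passed in replicate 2, at 63.0% against 54.7% (adjusted p = 0.450) and 57.3% (adjusted p = 0.645), each by Fisher's exact test. Without the second megabase the share was 61.3%, and neither difference passed (adjusted p = 0.270 and 0.402, Fisher's exact test). These tests on width and gaps were added after the values were seen. They take peaks as independent, which crowded peaks are not, so their p-values are too small.

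Very narrow peaks were weak but made up a larger share here than elsewhere. Peaks under 200 bp were 16.1% of the arm's peaks, against 2.54% on the rest of III, 4.39% on the other left arms and 3.58% in the whole list, and this difference was not tested. Among the other left arms the share was 7.48% on II, 5.80% on IV, 1.47% on V and 0% on I. Of the 99 peaks under 200 bp in the whole list, 35 lay on this arm, or 35.4%, and 25 of those in its second megabase. They had a median −log10 q of 4.25, and 19 of them lay in a cluster with another peak. Replicate 1 found 2 of the 35 and replicate 2 found 0, which allows a share of up to 8.57%. The narrowest was III:1494101-1494107, at 7 bp, with a −log10 q of 3.96. In replicate 1 itself, 4 of the arm's 120 peaks were under 200 bp, and in replicate 2 none of the 54 were.

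Broad peaks were few in the combined list, with 12 of 218 at 1 kb or wider, or 5.50%. The share was 10.8% on the rest of III and 13.4% on the other left arms. Among those arms it was 8.41% on II, 8.70% on IV, 17.6% on I and 26.5% on V. Replicate 1 gave 5% on the arm, 8.98% on the rest of III and 12.35% on the other left arms. In replicate 2 the order was reversed, at 9.26%, 6.67% and 5.21%, with 5 such peaks on the arm. The widest combined-list peak was III:832862-836357, at 3496 bp, which was split into 2 peaks in each replicate. It was followed by III:598958-601030 at 2073 bp, III:1950202-1952070 at 1869 bp, III:1927275-1929065 at 1791 bp and III:1418610-1420233 at 1624 bp. Of these 5, all were found in replicate 1, and all but III:598958-601030 in replicate 2. Peaks covered 99.4 kb of the arm in the combined list, or 2.89% of its length, against 2.73% of the rest of III. The covered share was close to that of the rest of III in spite of the higher count per Mb, but above the 1.33% of the other left arms. In replicate 1 the arm was covered to 1.58%, the rest of III to 1.43% and the other left arms to 0.603%. In replicate 2 the arm was covered to 0.828%, the rest of III to 0.871% and the other left arms to 0.304%.

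**Figure D4:**
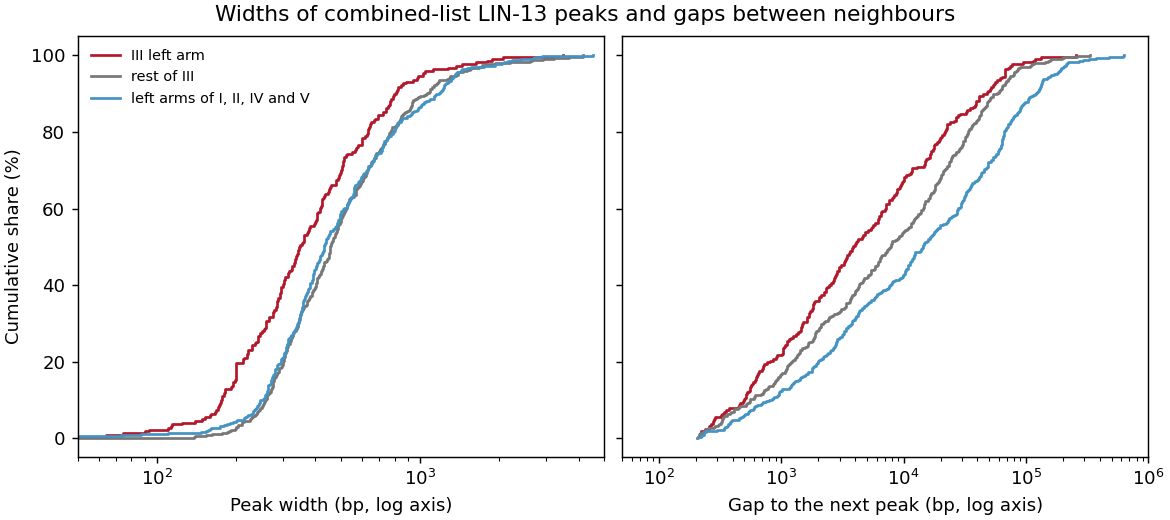
Cumulative share of combined-list peaks by width (left panel) and of gaps by length (right panel), both in bp on log axes, for the left arm of III, the rest of III and the 4 other left arms. The curve of the left arm of III lies to the left in both panels over most of the range, with medians of 349 bp for width and 3884 bp for gaps.

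In median strength the peaks of the arm were close to those elsewhere. Their median −log10 q was 6.80 (quartiles 4.69 to 10.3), against 6.58 on the rest of III, 6.01 on the other left arms and 6.03 in the whole list. Of the arm's peaks 70, or 32.1%, were among the strongest 25% of the whole list. The share was 28.1% on the rest of III and 24.55% on the other left arms. The strongest peak of the arm ranked 12 in the whole list. It was III:1616162-1617605, with a −log10 q of 66.8, and it was also the strongest left-arm peak of replicate 1, with 44.0, and of replicate 2, with 27.9. The replicate 1 call, 1616016 to 1617561, was 1546 bp wide and contained that of replicate 2, 1616201 to 1617230, which was 1030 bp wide.

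The second was III:1418610-1420233, with a combined −log10 q of 51.0, against 36.0 for replicate 1 and 17.3 for replicate 2. It stood at the right edge of the gap of 133723 bp. The third was the broad region III:832862-836357, with a combined value of 49.2. Its 2 replicate 1 peaks had 14.9 and 11.7, and its 2 replicate 2 peaks had 13.6 and 8.79. Its combined value was thus far above each of its replicate values.

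The next 4 lay in the window from 1.9 to 2.0 Mb. III:1920887-1921868, which opens the 10-peak cluster, had a −log10 q of 36.5, with 17.8 in replicate 1 and 14.0 in replicate 2. III:1938041-1938927 had 34.9, with 23.4 and 16.1, and its neighbour III:1939384-1940410 had 34.2, with 20.9 and 11.9. III:1950202-1952070 had 31.8, and its best replicate peaks had 12.7 and 8.75. Ranks 8 to 10 were III:2393345-2394283 with 31.1, III:1927275-1929065 with 30.7 and III:2785776-2786266 with 29.0. The last of these was only 491 bp wide, against a median of 1236 bp for the 10. Replicate 1 had the larger −log10 q at all 10, from 12.7 to 44.0 against 5.99 to 27.9 in replicate 2, and the depths of the lists are unknown.

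Of the 218 peaks, replicate 1 found 113, or 51.8% (45.2% to 58.4%), by an overlap of at least 1 bp, and 44.7% of all combined-list peaks were found this way. Replicate 2 found 52, or 23.9% (18.7% to 29.9%), against 25.2% of all. Both replicates found 46, or 21.1% (16.2% to 27.0%), against 21.8% of all. The replicate 2 share and the share found in both were near the background, whereas the replicate 1 interval lay above it. Of all members, 67 overlapped a peak of replicate 1 alone, 6 a peak of replicate 2 alone and 99, or 45.4%, no replicate peak. The 52 strongest peaks of the arm were all found in at least 1 replicate. The strongest in neither was III:1956395-1956852, with a −log10 q of 10.7.

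Compared with the rest of III, the share found in replicate 1 was nearly the same, at 51.8% against 51.2%, with an odds ratio of 1.03 (0.745 to 1.42, adjusted p = 1, Fisher's exact test). The share found in replicate 2 was 23.9% against 31.5%, with an odds ratio of 0.681 (0.472 to 0.983), and did not pass after adjustment over the 6 tests of support (p = 0.0472, adjusted p = 0.142, Fisher's exact test). Without the second megabase it was 18.9% against 31.5% and passed (odds ratio 0.507, adjusted p = 0.0414, Fisher's exact test). For both replicates it was 21.1% against 26.6% (odds ratio 0.737, 0.502 to 1.08, adjusted p = 0.260, Fisher's exact test), and without the second megabase 15.3% against 26.6%, which passed (odds ratio 0.498, adjusted p = 0.0414, Fisher's exact test). That megabase had the arm's highest share found in replicate 2, at 29.0%, and was left out of this arm alone. The arm's shares therefore had to fall, and the choice of cut favours these passes. Compared with the other left arms, replicate 1 found 51.8% against 41.6%, with an odds ratio of 1.51 (1.08 to 2.11), which did not pass after adjustment either (p = 0.0172, adjusted p = 0.103, Fisher's exact test). With arms of 30% of the chromosome in place of 25% it passed (odds ratio 1.59, adjusted p = 0.0219, Fisher's exact test). For replicate 2 the shares were 23.9% and 24.0% (odds ratio 0.990, 0.671 to 1.46), and for both replicates 21.1% and 20.7% (1.03, 0.683 to 1.54), each with an adjusted p of 1 by Fisher's exact test. Arm by arm, replicate 1 found 49.3% on IV, 38.2% on V, 37.8% on I and 36.45% on II, so IV was close to III. None of the 6 differences passed over the whole left arm of III.

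**Figure D5:**
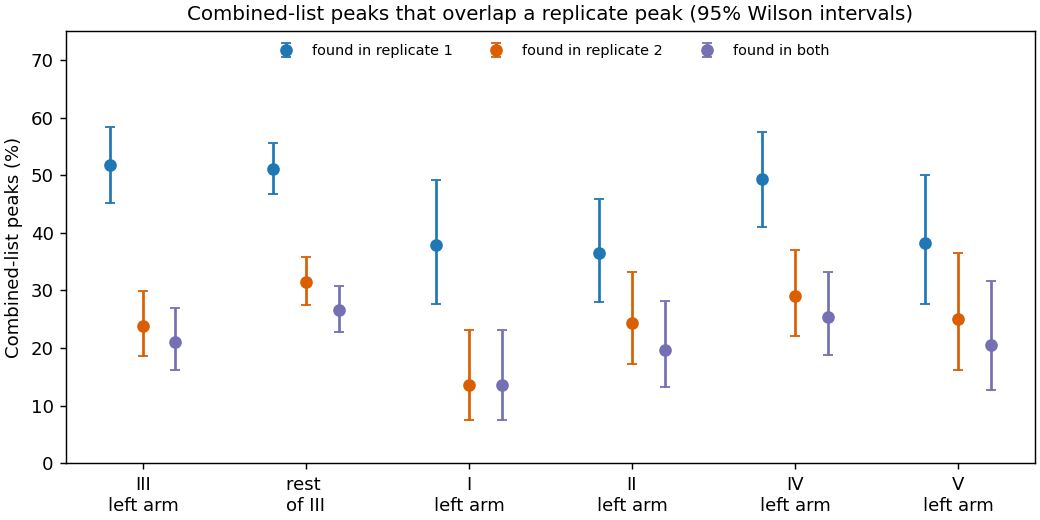
Percent of combined-list peaks that overlap a peak of replicate 1, of replicate 2 and of both (vertical axis), as points with 95% Wilson intervals, on the left arm of III, the rest of III and each of the 4 other left arms. The left arm of III shows 51.8%, 23.9% and 21.1%, and its intervals overlap those of the rest of III.

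The comparison with the rest of III changed when peaks of like combined-list q-value were set against each other. Over 10 strata of q-value, the odds ratio of being found in replicate 2 was 0.406 (adjusted p = 0.00500, exact conditional Mantel-Haenszel test), and 0.405 for both replicates (adjusted p = 0.0105, the same exact test). For replicate 1 it was 0.931 (adjusted p = 0.827, the same exact test). Among the strongest 25% of the whole list, replicate 2 found 44 of 70 peaks on the left arm of III, or 62.9% (51.1% to 73.2%), and 110 of 133 on the rest, or 82.7% (75.4% to 88.2%). Replicate 1 found 68 of these 70, or 97.1%, and 124 of the 133, or 93.2%. In the second strongest 25% replicate 2 found 7 of 51, or 13.7%, against 28 of 130, or 21.5%. The lower share in replicate 2 was seen among peaks of like combined-list q-value, which is not independent of the replicate calls. Across peaks found in both replicates, the combined and replicate 1 −log10 q had a Spearman correlation of 0.890 on the arm. On the rest of III it was 0.794. The part of this relation in the odds ratios over q-value strata was not tested. Against the other left arms the q-value strata gave an odds ratio of 0.607 for replicate 2 and 0.562 for both replicates, and neither passed (adjusted p = 0.124 for each, the same exact test).

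With strata of width in place of q-value, the picture was different. The odds ratio for replicate 2 became 1.06 (adjusted p = 0.831), and that for replicate 1 became 1.71 (adjusted p = 0.0153), both by the exact conditional Mantel-Haenszel test. Narrow peaks make up much of the arm, with 98 of 218 among the narrowest 25% of the list, and replicate 2 found 4 of those 98, or 4.08%, while replicate 1 found 29, or 29.6%. On the rest of III replicate 2 found 8 of 128 such peaks, or 6.25%. Width and q-value are themselves related, with a Spearman correlation of 0.752 across the 218 peaks of the arm and 0.619 across the 473 of the rest. Peaks are not independent replicates, and both measures come from the same reads.

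Seen from the replicate lists, 48 of the 120 replicate 1 peaks on the arm overlapped a replicate 2 peak, or 40% (31.7% to 48.9%), against 49.2% (43.1% to 55.3%) on the rest of III. In the other direction, 48 of the 54 replicate 2 peaks overlapped a replicate 1 peak, or 88.9% (77.8% to 94.8%), against 84% (77.3% to 89.0%). These differences were not tested, and their intervals overlap. Every replicate 2 peak of the arm was in the combined list, as were 117 of the 120 replicate 1 peaks. The 3 missing ones had −log10 q of 6.33, 4.02 and 4.01, and none was in replicate 2.

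Support also varied along the arm. Replicate 1 found 15 of 34 peaks in the first megabase, or 44.1% (28.9% to 60.6%), 63 of 107 in the second, or 58.9% (49.4% to 67.7%), 27 of 55 in the third, or 49.1% (36.4% to 61.9%), and 8 of 22 beyond it, or 36.4% (19.7% to 57.1%). Replicate 2 found 9, 31, 9 and 3 of the same peaks, or 26.5%, 29.0%, 16.4% and 13.6%. Both were highest in the second megabase, although the intervals overlap. Peaks in clusters of 3 or more were found in replicate 1 in 43 of 74 cases, or 58.1%, and in replicate 2 in 23, or 31.1%. Peaks in pairs were found in 24 of 44 cases, or 54.5%, and in 7, or 15.9%. Single peaks were found in 46 of 100 cases and in 22 of 100, so the replicate 2 share was lowest in pairs. The median −log10 q was 8.42 in clusters of 3 or more, 5.89 in pairs and 6.43 for single peaks. Pairs thus had a lower median than single peaks, with a higher share found in replicate 1 and a lower share found in replicate 2. Neither these differences between cluster sizes nor the part of strength in them was tested.

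The 46 peaks found in both replicates had a median −log10 q of 17.4 from the combined calls, 9.26 from replicate 1 and 6.56 from replicate 2. Replicate 1 was the stronger in 37 of the 46, and the combined-list value was above both in all 46. Across these peaks the −log10 q of the replicates had a Spearman correlation of 0.713, against 0.649 across the 126 such peaks on the rest of III, as a description of peaks from the same libraries. Their combined-list width had a median of 706.5 bp, near the 679.5 bp on the rest of III. Peaks found in neither replicate had a median width of 250 bp and a median −log10 q of 4.69, against 344.5 bp and 4.85 on the rest of III. Those found in replicate 1 had a median width of 434 bp against 568.5 bp. The lower median width was thus seen in peaks with and without replicate 1 support, but not in peaks found in both replicates.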

How the data were processed

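Peaks came from 3 deposited lists, 1 for each LIN-13 ChIP replicate and a combined one. The authors called them with PeakSeq on WormBase WS180 and gave a q-value as the only value per peak, per the file headers. Nothing used here states the aligner, versions, filters or making of the combined list. The input samples have no values used here. Groups were taken from the titles, and the description fields conflict with them on both sides: a ChIP title goes with input DNA, and an input title with ChIP DNA, an antibody and input DNA.

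Peaks, gaps and clusters (gaps of at most 2 kb) were derived in Python 3.11.15 (scipy 1.17.1, pandas 2.3.3, numpy 2.4.6), and 1 bp overlaps were checked against bedtools 2.31.1. The farthest end of a peak stood for chromosome length, a lower bound. Left arms of I, II, IV and V are the first 25% of that length. Support was compared by two-sided Fisher's exact tests with Benjamini-Hochberg adjustment over 6 tests, and width and gaps over 12 tests added after the values were seen. Each alternative for support was adjusted over its own 6 tests. No adjustment was made for the number of alternatives, so a pass in 1 of them alone is weak. Odds ratio intervals are 95%. All tests take peaks as units, so their p-values measure counting error and not the spread between cultures. The calculations were tested on simulated data.

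The stretch, the comparisons and the alternatives were chosen with earlier results of these data known. Regions named are the 10 strongest found in both replicates, the 5 widest, the narrowest, the 5 largest clusters, the 3 fullest windows, the largest gap, the peaks at the boundary and the strongest in neither replicate. Others were named after their values were seen. No genome or annotation of WS180 was used, so no genes or sequences are given.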

Additional observations from a re-analysis of the deposited data

How the results depend on the processing

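Read depth is unknown, so the absence of a weak peak from a replicate list is hard to read. In the alternatives for the 6 tests of support and the 4 on width and gaps, values are odds ratios of the left arm of III against the other stretch. No paired analysis was possible because only the ChIP replicates have peaks, and no values of the inputs with the same numbers were used.

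For support against the rest of III, replicate 1 gave 0.994 with an overlap of 50% of the peak, 0.931 over q-value strata, 0.782 without the second megabase and 1.71 over width strata. Replicate 2 gave 0.406 over q-value strata, 0.507 without the second megabase (adjusted p = 0.0414, Fisher's exact test) and 1.06 over width strata, and both replicates gave 0.405, 0.498 (adjusted p = 0.0414, Fisher's exact test) and 1.23. Leaving out the second megabase lowers the arm's shares by construction, since support was highest there. Against the other left arms, replicate 1 gave 1.59 with arms of 30% (adjusted p = 0.0219, Fisher's exact test) and 2.63 over width strata (adjusted p = 4.81e-06, exact Mantel-Haenszel test). Replicate 2 crossed 1 with an overlap of 50% (1.005), centres within 200 bp (1.10), no peaks under 100 bp (1.01), arms of 20% (1.09) and 30% (1.05), clusters as units (1.16) and width strata (1.63). Both replicates gave 0.877 in the stronger 50% of the list, 0.562 over q-value strata, 0.694 without the second megabase, 0.928 without the left arm of I and 1.75 over width strata, the last of which passed (adjusted p = 0.0452, exact Mantel-Haenszel test). With 1 replicate left out there is no share found in both, so the single-replicate odds ratios given above were set in its place. These were 0.681 and 1.03 against the rest of III, and 0.990 and 1.51 against the other left arms. The cause of these changes was not tested. The width strata and the right arm of III as the stretch compared were added after seeing the data.

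For narrow peaks the odds ratio was 1.42 and 1.31 without the second megabase, and with 1 replicate left out 1.41 to 2.30 against the rest of III and 1.27 to 2.07 against the other left arms. For short gaps it was 1.70 against the rest of III with arms of 20%, which passed, 1.63 against the other left arms without the second megabase, and 1.22 to 1.47 and 1.46 to 2.54 with 1 replicate left out. Peaks per Mb on the arm were 35.1 in the stronger 50%, 40.7 with clusters as units and 15.7 to 34.9 in single replicates. The median width was 502 bp in the stronger 50% and 355 to 406.5 bp in single replicates, and the median gap 6611 to 20106 bp. Gaps of at most 2 kb made up 27.5% in the stronger 50% and 15.1% to 26.9% in single replicates, gaps of at most 1 kb 21.7% and of at most 5 kb 53.9%. The fullest window held 11 to 21 peaks in single replicates and 40 peaks at 200 kb. Of 94 alternatives for tests, 61 kept direction and side of the threshold. The 94 include the single-replicate odds ratios set in place of the share found in both, which are not new tests. Of 32 for descriptions, 18 were called the same. For peaks per Mb and the fullest window, this meant a change by a factor of at most 1.5 either way. For the median width, the median gap and the share of short gaps, it meant a move of less than 1 SD between the replicate lists. That SD is wide for the median gap, which was 7749.5 bp in the stronger 50% and 7629 bp without the second megabase against 3884 bp.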
